A study of Mus musculus with 9 samples.

Results

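Dendritic cells take up antigen in the airways and alveolar walls and present it to T cells, and 9 genes by which they are commonly told apart were followed here in mouse lung exposed to the mould Aspergillus fumigatus. The 9 genes were Clec9a, Xcr1, Batf3, Itgae, Cd209a, Siglech, Irf8, Zbtb46 and Flt3, chosen by name, and all 9 were found among the 18984 genes listed. Whole lungs of C57BL/6 mice were taken 24 hours after intratracheal inoculation with hyphal fragments (the filamentous form of the fungus), with conidia (its spores) or with normal saline, called hyphae, conidia and control below. There were 3 libraries of poly(A) RNA in each group, 9 in all. No age, sex or count of mice is named in the labels used here. Nor do they state whether each library is from a mouse of its own, so the p-values may reflect technical spread between libraries alone.

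As background, lung dendritic cells arise from bone marrow precursors that carry the receptor Flt3 and depend on its ligand Flt3l. Type 1 classical dendritic cells need the transcription factors Irf8 and Batf3, carry Xcr1 and Clec9a, and cross-present antigen from dead cells to CD8 T cells. Type 2 classical dendritic cells favour CD4 T cell responses, plasmacytoid dendritic cells are known for type I interferon, and in mice these 2 types are marked by Cd209a (on part of the cells) and Siglech. Several of the 9 genes are also active elsewhere: Irf8 in B cells, monocytes and macrophages, Itgae in tissue T cells, and Zbtb46 in endothelium. In whole lung, fewer cells of a type, less RNA per cell and a smaller share of the RNA beside that of other cells cannot be told apart.

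Values are FPKM, fragment counts scaled to transcript length and to the mapped total, and may be compared between genes because they are per length. Summed FPKM per library ranged from 492540 to 561250. The depth is not recorded. The spacing of low values gave roughly 20400000 to 25200000 fragments per library (assuming fragments of 150 bases). The fit was weak, with scores of 0.14 to 0.244, far below a perfect fit. It was weakest for conidia replicate 1, which gave the highest estimate. On this rough guide the lowest value of Siglech but one, 0.28 FPKM in conidia replicate 3, stood for about 3.94 to 12.4 fragments, depending on the transcript. The log2 difference of the median gene was -0.37 for hyphae against control and -0.29 for hyphae against conidia. Each test was therefore repeated on values divided by a size factor per library (the median of ratios), called rescaled below, which places the median gene near 0.

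Promoter sequences are shown for the 3 genes that fell after hyphae on both scales (Cd209a, Xcr1 and Clec9a, described below). Zbtb46 did not pass the test and is shown because it held the only BATF-type composite site among the windows searched. Whether its window is a promoter is uncertain, for a reason given below. All are RefSeq sequences of build GRCm38.p6, from 250 bases before to 50 bases after the annotated start. They are written 5′ to 3′ on the strand of the gene, at chr8:3748935-3749234 (minus strand), chr9:123861980-123862279 (minus strand), chr6:129408612-129408911 (plus strand) and chr2:181424339-181424638 (minus strand). Capitals mark matches, on either strand, to motifs bound by the factors that build dendritic cells.
Cd209a: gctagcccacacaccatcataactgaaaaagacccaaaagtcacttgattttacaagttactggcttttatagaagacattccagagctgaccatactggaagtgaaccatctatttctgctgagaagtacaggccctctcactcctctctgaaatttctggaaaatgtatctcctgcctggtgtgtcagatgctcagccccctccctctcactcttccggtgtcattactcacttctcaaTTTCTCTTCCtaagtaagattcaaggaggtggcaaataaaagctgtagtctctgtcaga
Xcr1: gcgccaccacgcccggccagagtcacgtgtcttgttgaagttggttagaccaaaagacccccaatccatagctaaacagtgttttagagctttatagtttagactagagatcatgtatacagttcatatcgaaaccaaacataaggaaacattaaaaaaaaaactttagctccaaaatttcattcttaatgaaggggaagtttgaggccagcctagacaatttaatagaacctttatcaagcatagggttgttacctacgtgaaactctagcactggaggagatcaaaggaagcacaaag
Clec9a: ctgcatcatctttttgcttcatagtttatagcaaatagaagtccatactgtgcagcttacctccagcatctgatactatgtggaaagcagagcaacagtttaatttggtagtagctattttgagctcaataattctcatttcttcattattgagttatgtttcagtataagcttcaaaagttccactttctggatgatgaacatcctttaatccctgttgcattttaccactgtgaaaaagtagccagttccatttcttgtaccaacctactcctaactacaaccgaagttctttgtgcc
Zbtb46: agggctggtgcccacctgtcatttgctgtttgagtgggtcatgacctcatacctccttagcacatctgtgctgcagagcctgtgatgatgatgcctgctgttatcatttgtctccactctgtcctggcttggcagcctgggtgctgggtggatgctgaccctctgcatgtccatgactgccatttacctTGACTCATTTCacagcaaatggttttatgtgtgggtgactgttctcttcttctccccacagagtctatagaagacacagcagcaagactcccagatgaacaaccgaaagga

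Motifs were searched in the 9 promoters found for 8 of the genes (Irf8 has 2), and Itgae was not among them. Cd209a held 1 match to GGAA and GAAA with any 2 bases between them, the site of PU.1 paired with an interferon regulatory factor, whose first base lay at -9 from the start and which reads GGAAGAGAAA on the opposite strand. This motif was present in 2.72% of the 32851 promoters in the table. Zbtb46 held a match to GAAA followed directly by TGANTCA, a composite of an interferon regulatory factor and a BATF or AP-1 site, reading GAAATGAGTCA on the opposite strand and beginning at -61. That composite was found in 0.125% of all promoters, and the plain site TGANTCA, which lies inside it, in 7.81%. The bases just before the annotated start of Zbtb46 are a run of pyrimidines ending in CAG, the form of an intron end before an exon. The match may therefore lie in an intron, and whether this window is a promoter was not tested. The promoters of Xcr1, Clec9a, Flt3, Batf3, Irf8 and Siglech held no match to these motifs in this window. No match was found in any of the 9 for TTTC and TGANTCA with any 4 bases between them (0.119% of all promoters) or for the interferon response element, GAAA repeated after any 2 bases (3.44%).

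In control lungs the 9 genes covered a range of levels. Irf8 stood highest at 18.5 ± 2.99 FPKM (mean ± SD, n = 3), followed by Clec9a at 11.1 ± 2.02, Zbtb46 at 8.56 ± 0.145 and Cd209a at 6.64 ± 0.727 FPKM, and no neighbours in this order overlapped. Batf3 (2.07 ± 0.590), Flt3 (2.04 ± 0.370), Itgae (1.84 ± 0.476), Xcr1 (1.80 ± 0.320) and Siglech (1.18 ± 0.662 FPKM) followed, each overlapping with the next. After hyphae the lowest gene was Xcr1 and after conidia it was Siglech, while Clec9a was the highest after conidia, where it overlapped with Irf8. The plot of the genes by library shows every value.

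**Figure D1:**
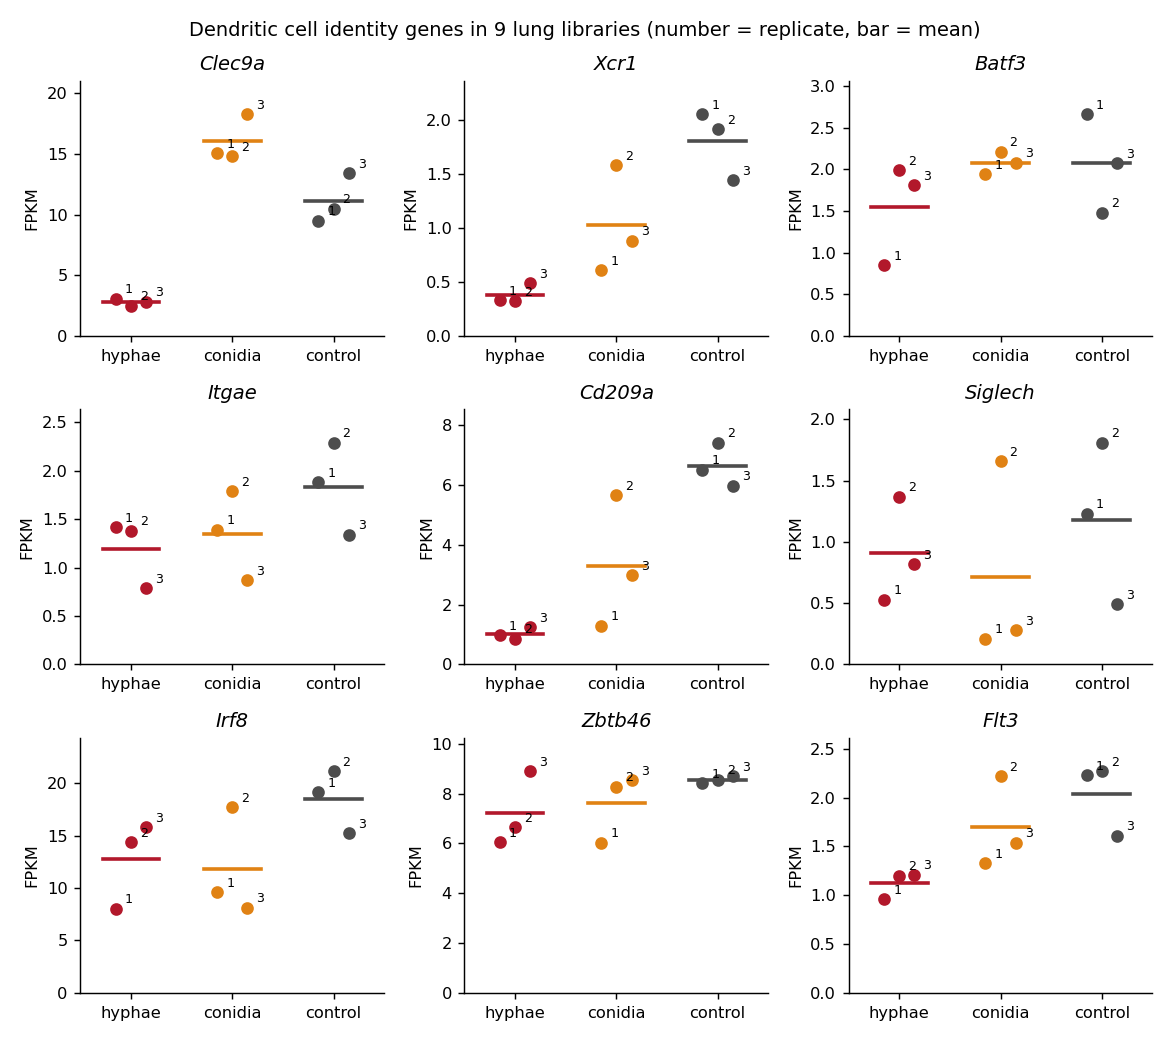
FPKM of the 9 genes in each library, with hyphae, conidia and control from left to right; points are libraries numbered by replicate and bars are means of 3. Cd209a, Xcr1, Clec9a and Flt3 lie below every control in all hyphae libraries, Clec9a lies above every control in all conidia libraries, and conidia replicate 2 is the highest of its group for 7 of the 9 genes.

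Hyphae were compared with control to ask which dendritic cell genes differed a day after the filamentous form was given. Of the 9 genes 4 fell (Cd209a, Clec9a, Xcr1 and Flt3), none rose, and 5 did not pass at an adjusted p under 0.05 (limma, Benjamini-Hochberg over 13761 genes). Over all genes tested 64.9% were called in this comparison, 6886 of 13761 as lower, so that the share of the 9 was not above that of genes at large. The libraries of the 2 groups did not overlap for the same 4 genes, and for 70.7% of all genes. Their median log2 difference was -0.51, against -0.37 for all genes. After rescaling 3 of the 9 fell, where 59.3% of all genes were called and 4035 fell, and the medians were -0.14 and 0.00.

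Cd209a, the mouse homologue of the C-type lectin DC-SIGN, found on type 2 and monocyte-derived dendritic cells, stood at 0.97, 0.86 and 1.25 FPKM in hyphae libraries, against 6.52, 7.42 and 5.98 FPKM in control libraries. The groups lay far apart, and the mean in control libraries was 6.47 times that in hyphae libraries. On the log2(FPKM + 1) scale it fell by 1.91 (SE 0.32, adjusted p = 0.000938), and by 1.62 after rescaling (adjusted p = 0.00173).

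Xcr1, the receptor for the chemokine Xcl1 and the most restricted mark of type 1 dendritic cells, stood at 0.33, 0.32 and 0.49 FPKM in hyphae libraries, against 2.05, 1.91 and 1.44 FPKM in control libraries. The control mean was 4.74 times that of hyphae, and the libraries did not overlap. The log2 change was -1.02 (SE 0.18, adjusted p = 0.00117), or -0.83 rescaled (adjusted p = 0.00233). Because 1 FPKM was added before the logarithm, the change of so low a gene is understated: with 0.1 in its place the log2 change was -1.99.

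Clec9a, a receptor for actin exposed on dead cells, stood at 3.07, 2.49 and 2.83 FPKM in hyphae libraries, against 9.51, 10.50 and 13.40 FPKM in control libraries. All 3 hyphae libraries lay below all controls, and Clec9a fell by 1.67 on the log2 scale (SE 0.14, adjusted p = 4.2e-05). The rescaled change was -1.31 (adjusted p = 0.000141). Flt3, the receptor through which dendritic cell precursors grow, stood at 0.96, 1.20 and 1.21 FPKM in hyphae libraries, against 2.23, 2.27 and 1.61 FPKM in control libraries. The groups did not overlap, but the log2 change of -0.51 (SE 0.15, adjusted p = 0.0166) was close to that of the median gene. After rescaling it was -0.25 (adjusted p = 0.152), and the call was also lost without control replicate 1 (adjusted p = 0.055) or control replicate 2 (0.0602).

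The other 5 genes did not pass. Irf8, which directs both type 1 and plasmacytoid dendritic cells, stood at 8.04, 14.38 and 15.78 FPKM in hyphae libraries, against 19.12, 21.13 and 15.24 FPKM in control libraries, so that hyphae replicate 3 lay within the control range. The log2 difference was -0.54 (95% interval -1.24 to 0.15, adjusted p = 0.146). Batf3, its partner in type 1 cells, stood at 0.85, 1.99 and 1.81 FPKM in hyphae libraries, against 2.66, 1.48 and 2.07 FPKM in control libraries. The 2 groups overlapped, with a log2 difference of -0.28 (interval -0.74 to 0.18, adjusted p = 0.254). Siglech, a sialic acid receptor of mouse plasmacytoid cells, stood at 0.53, 1.37 and 0.82 FPKM in hyphae libraries, against 1.23, 1.81 and 0.49 FPKM in control libraries. Here every hyphae library lay inside the control range (log2 difference -0.17, interval -0.94 to 0.61).

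Zbtb46, a zinc finger factor of classical dendritic cells and their precursors, stood at 6.05, 6.66 and 8.90 FPKM in hyphae libraries, against 8.42, 8.56 and 8.71 FPKM in control libraries. One hyphae library lay above all controls and the other 2 below (log2 difference -0.24, interval -0.59 to 0.12; 0.15 rescaled, so that the sign depends on the scaling). Itgae, an integrin that binds E-cadherin and marks lung type 1 dendritic cells and intraepithelial T cells, stood at 1.42, 1.38 and 0.79 FPKM in hyphae libraries, against 1.88, 2.29 and 1.34 FPKM in control libraries. The groups overlapped in the lowest control, and the log2 difference was -0.37 (interval -0.82 to 0.08, adjusted p = 0.131). Of the genes that mark type 1 cells, the surface receptors Xcr1 and Clec9a thus fell, and the factor Batf3 and the integrin Itgae did not pass the test. Clec9a is uncertain for a reason given below, which leaves Xcr1, at 0.32 to 0.49 FPKM in hyphae libraries. Whether these changes differed from each other was not tested.

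**Figure D2:**
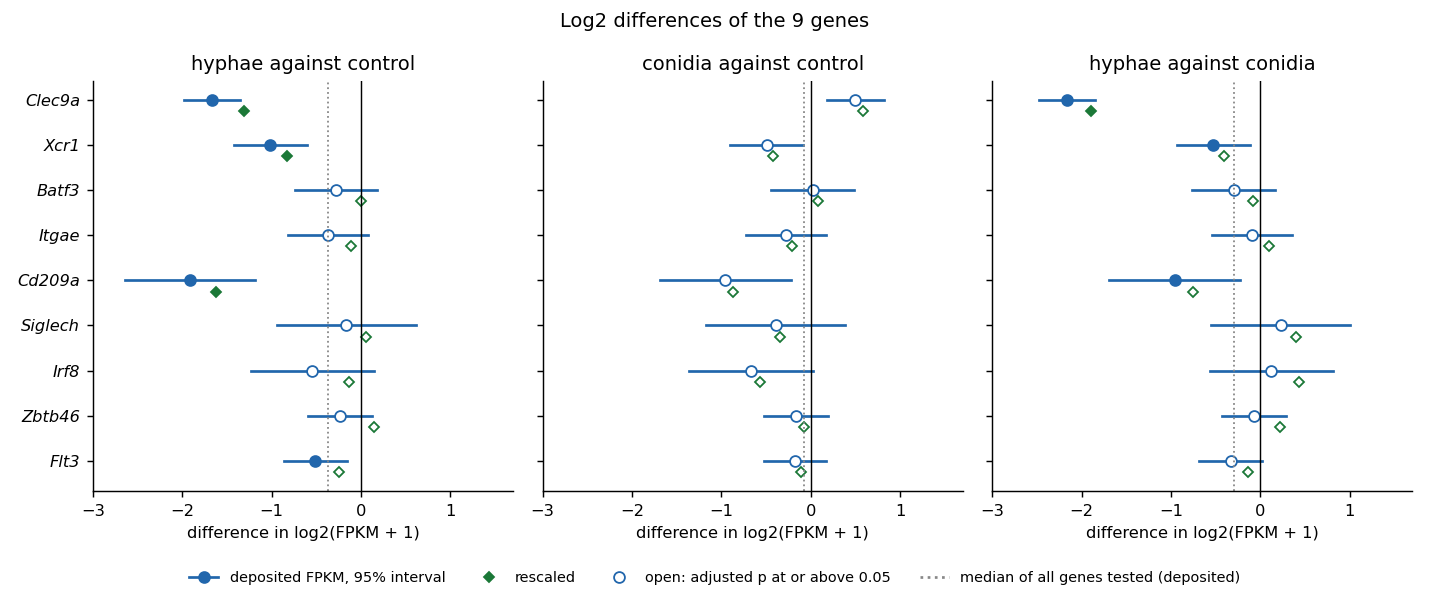
Difference in log2(FPKM + 1) of each gene in the 3 comparisons, from the limma fit: blue circles are deposited values with 95% intervals, green diamonds rescaled values, and filled symbols have an adjusted p under 0.05. Cd209a, Clec9a and Xcr1 are filled on both scales for hyphae against control, no gene is filled for conidia against control, and only Clec9a is filled on both scales for hyphae against conidia.

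Conidia were compared with control to ask the same of spores. None of the 9 genes was called in limma, where 0.690% of all genes were (0.342% rescaled, again with none of the 9), and 3 of them (Clec9a, Cd209a and Xcr1) had an unadjusted p under 0.05, as had 2909 of the 13761 genes. Library weights estimated from the data called 6 of the 9 (Clec9a as higher, the others as lower), and 5031 of the 13761 genes. Conidia replicate 2 stood apart from its group: it was the highest of the 3 for 7 of the 9 genes and lay inside the control range for 6 of them, against 2 of 9 for each of the other conidia libraries. Each log2 difference is therefore given also without it, and 1535 of all genes were called in that fit. Because this library was singled out by the values of these same genes, the results without it are a description and not separate support.

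Cd209a stood at 1.29, 5.66 and 2.98 FPKM in conidia libraries, against 6.52, 7.42 and 5.98 FPKM in control libraries. All 3 lay below the controls, replicate 2 only narrowly. The log2 difference was -0.95 (SE 0.32, adjusted p = 0.152), and without conidia replicate 2 it was -1.34 (SE 0.23, adjusted p = 0.0113). Xcr1 stood at 0.61, 1.58 and 0.88 FPKM in conidia libraries, against 2.05, 1.91 and 1.44 FPKM in control libraries, so that only replicate 2 overlapped with the controls. Its log2 difference was -0.49 (SE 0.18, adjusted p = 0.175), and -0.68 without replicate 2 (SE 0.15, adjusted p = 0.0247).

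Clec9a went the other way. It stood at 15.07, 14.81 and 18.28 FPKM in conidia libraries, against 9.51, 10.50 and 13.40 FPKM in control libraries, and the groups did not overlap. The log2 difference was 0.50 (95% interval 0.18 to 0.81, adjusted p = 0.114; 0.58 rescaled, adjusted p = 0.0978), and 0.55 without replicate 2 (adjusted p = 0.0638). Of the 9 genes 2 (Clec9a and Cd209a) had groups that did not overlap in this comparison, as did 29.8% of all genes.

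The other genes overlapped with control. Irf8 stood at 9.60, 17.68 and 8.12 FPKM in conidia libraries, against 19.12, 21.13 and 15.24 in control libraries (log2 difference -0.67, interval -1.36 to 0.03, adjusted p = 0.249). Without replicate 2 it was -0.98 (adjusted p = 0.0515). Siglech stood at 0.21, 1.66 and 0.28 FPKM in conidia libraries, against 1.23, 1.81 and 0.49 FPKM in control libraries (log2 difference -0.39, adjusted p = 0.514; -0.76 without replicate 2, adjusted p = 0.112). For both genes the libraries of replicates 1 and 3 were low and that of replicate 2 was within the control range. Flt3 (1.33, 2.22 and 1.54 FPKM in conidia libraries), Itgae (1.39, 1.79 and 0.87) and Zbtb46 (6.03, 8.28 and 8.55) had log2 differences of -0.18, -0.28 and -0.16 from control. Without replicate 2 these were -0.31 for Flt3, -0.41 for Itgae and -0.22 for Zbtb46, and none passed. Batf3 was even, at 1.94, 2.21 and 2.08 FPKM in conidia libraries, with a log2 difference of 0.02 (interval -0.44 to 0.48), or -0.01 without replicate 2.

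Hyphae and conidia were also compared directly, with the control libraries entering only the estimate of spread. Clec9a was lower after hyphae, at a mean of 2.80 ± 0.291 FPKM in hyphae libraries and 16.1 ± 1.93 FPKM in conidia libraries (log2 change -2.16, SE 0.14, adjusted p = 2.75e-05; -1.90 rescaled, adjusted p = 5.17e-05), and kept its call in all 15 alternative settings. Cd209a (-0.96, SE 0.32, adjusted p = 0.0314) and Xcr1 (-0.53, SE 0.18, adjusted p = 0.0338) also fell. Both lost the call after rescaling (adjusted p = 0.0596 for Cd209a and 0.0635 for Xcr1), with only these 2 groups in the fit, and without conidia replicate 2 or 3 or any 1 of the hyphae replicates, where the adjusted p was 0.0521 to 0.0906 for Cd209a and 0.0509 to 0.0959 for Xcr1. In this comparison 55.2% of all genes were called (5847 of 13761 as lower), and 50.8% after rescaling, when 1 of the 9 was. Flt3, at 0.96 to 1.21 FPKM in hyphae libraries and 1.33 to 2.22 FPKM in conidia libraries, joined these 3 among genes whose libraries did not overlap, as in 59.9% of all genes, but did not pass (-0.33, adjusted p = 0.0945). Irf8 and Siglech had positive differences (0.12 and 0.23) that did not pass, with intervals of -0.57 to 0.82 and -0.55 to 1.0.

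Clec9a and Xcr1 both mark type 1 dendritic cells, and both fell after hyphae. After conidia their log2 differences from control had opposite signs (0.50 and -0.49), although neither was called. Clec9a stood above Xcr1 in every library, and their Pearson correlation over the 9 libraries was 0.65. The ratio of Clec9a to Xcr1 in FPKM was 5.78 to 9.30 in hyphae libraries, 9.37 to 24.7 in conidia libraries and 4.64 to 9.31 in control libraries. Among 13760 other genes tested, Clec1a had the second highest correlation with Clec9a over the 9 libraries (Pearson r = 0.993), after Cebpg (0.993), a basic leucine zipper factor, and before Cpne1 (0.992). These values include the differences between groups. For deviations from the group means the correlation was 0.77 for Clec1a, 0.81 for Cebpg and 0.93 for Cpne1. Clec1a, also called MelLec, is a lectin that recognises the melanin of A. fumigatus conidia and in mice is found on endothelial cells. In the GENCODE M21 annotation it is the next gene after the 3′ end of Clec9a and runs in the opposite direction.

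Clec1a stood at 6.51, 5.0 and 4.68 FPKM in hyphae libraries, 36.36, 31.63 and 34.27 FPKM in conidia libraries and 17.36, 20.87 and 27.52 FPKM in control libraries. The order of the groups was thus that of Clec9a, and the ratio of Clec9a to Clec1a stayed between 0.414 and 0.605 in all 9 libraries. Clec1a fell by 1.83 after hyphae (SE 0.17, adjusted p = 5.86e-05) and differed by 0.64 after conidia (adjusted p = 0.102). Clec1b also overlaps the annotated Clec9a gene, in the same direction, and did not pass after hyphae as deposited (0.61, adjusted p = 0.0577) but was higher rescaled (0.99, adjusted p = 0.00617). The sources used here do not say whether the libraries or the counting kept the strand. Whether fragments of Clec1a entered the Clec9a values was not tested, and Clec9a is reported as uncertain for that reason. The marker list of endothelium, to which Clec1a does not belong, summed to 1757 to 1883 FPKM in hyphae libraries, 1749 to 2081 in conidia libraries and 1303 to 1769 in control libraries. Its genes were divided: of 13 tested 4 rose and 3 fell after hyphae (5 and 2 rescaled). Over all genes 64.9% were called in either direction (59.3% rescaled).

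**Figure D3:**
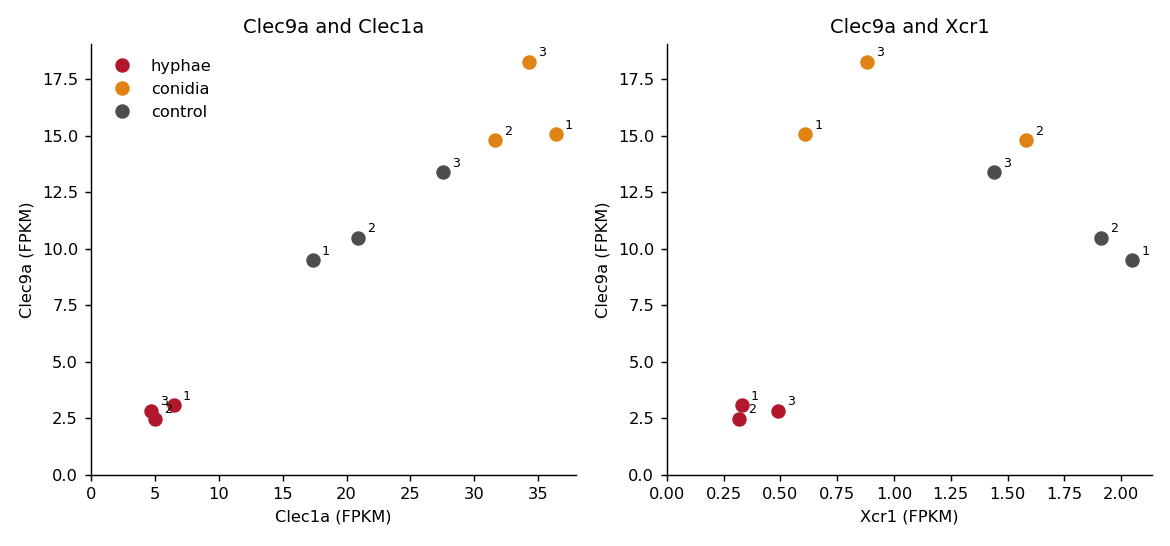
Clec9a plotted against its neighbour Clec1a (left) and against Xcr1 (right), both axes in FPKM, with 1 point per library numbered by replicate. Clec9a and Clec1a rank the 3 groups alike, while conidia replicates 1 and 3 combine Clec9a above every control with Xcr1 below every control.

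The genes most like the other members in pattern were found in the same way, as a description over 9 libraries that share their group differences. Those nearest to Xcr1 were Impa2 (r = 0.992), Sbk1 (0.991) and Tspan32 (0.989), and those nearest to Cd209a were Cep250 (0.997), Mppe1 (0.992) and Msh5 (0.992). Flt3 was nearest to Tbc1d10c (0.984), Cd180 (0.983), a relative of the Toll-like receptors found on B cells and macrophages, and Rasal3 (0.977). Irf8 was nearest to Il21r (0.982), the receptor for interleukin 21, to H2-Oa (0.969), a modulator of peptide loading in B cells, and to Cenpa (0.964). Siglech was nearest to Cd6 (0.931), a receptor of T cells, Klra7 (0.913), a receptor of NK cells, and Kcp (0.904). Itgae was nearest to Kifc1 (0.923), Ap1g1 (0.911) and Asah2 (0.910), Batf3 to Psen2 (0.858), Snx8 (0.855) and Cebpa (0.853), and Zbtb46 to the gene with Entrez ID 108167549 (0.983), Cd1d1 (0.940) and Ppp1r8 (0.926).

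Of 6 further lists of dendritic cell genes, with 92 genes in the files apart from the 9, 79 were tested. None of these lists had a member called for conidia in limma, where 95 of the 13761 genes were called in all. At an unadjusted p under 0.05 there were 29 of the 79, and 2909 of the 13761 genes. For hyphae the counts below stand beside 2045 genes that rose and 6886 that fell among the 13761 (4132 and 4035 rescaled). Genes called in either direction were 9 of 11 for type 1, 8 of 11 for type 2, 6 of 13 for plasmacytoid, 9 of 15 for general, 7 of 16 for mature and 7 of 13 for growth factor genes, beside 64.9% of all genes. No list was tested against that share. After hyphae 7 of 11 tested genes of type 1 dendritic cells fell and 2 rose (6 and 2 rescaled). Their median log2 difference was -0.87, against -0.37 for all genes. Cd8a, among those that fell, is also on the list of T cell markers below. Snx22, a sorting nexin, fell to 1.74 ± 0.220 FPKM in hyphae libraries, against 6.22 ± 1.58 in control libraries (log2 change -1.37, SE 0.18, adjusted p = 0.000261). The others named by size were Itgb7 (-1.35), the partner chain of Itgae, and Rab7b (-1.30), a small GTPase of late endosomes. Cadm1, an adhesion molecule of type 1 cells that epithelium also makes, stood at 43.8 ± 2.78 FPKM in hyphae libraries and 47.2 ± 8.87 FPKM in control libraries and did not pass (-0.09, adjusted p = 0.709).

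The 2 that rose were transcription factors with wide expression. Nfil3, which acts early in type 1 dendritic cell development and is also an inducible gene in many cells, stood at 67.36, 75.85 and 98.91 FPKM in hyphae libraries, against 3.88, 3.19 and 2.30 FPKM in control libraries (log2 change 4.31, SE 0.34, adjusted p = 3.77e-05). Id2, an inhibitor of E proteins, stood at 91.81, 143.53 and 203.04 FPKM in hyphae libraries, against 57.35, 74.58 and 65.20 FPKM in control libraries (1.08, SE 0.26, adjusted p = 0.00559). Both groups of libraries were fully separate for each gene, opposite in direction to Xcr1. Nfil3 stood at 17.08, 5.30 and 9.18 FPKM in conidia libraries, with a log2 difference from control of 1.37 that did not pass (adjusted p = 0.0922).

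Among 11 tested genes of type 2 dendritic cells 6 fell and 2 rose after hyphae (4 and 2 rescaled; median -0.62). Cx3cr1, the fractalkine receptor, which monocytes share, stood at 0.14, 0.17 and 0.22 FPKM in hyphae libraries, against 4.34, 6.96 and 3.93 FPKM in control libraries (log2 change -2.34, SE 0.27, adjusted p = 0.000144). Ltb, lymphotoxin beta, fell by 1.39 and Clec10a, a galactose-binding lectin, by 1.19. Klf4, a factor that endothelium and epithelium share, rose by 1.83 (adjusted p = 2.43e-05).

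Of 13 tested genes of plasmacytoid dendritic cells 5 fell and 1 rose after hyphae, and 3 fell and 4 rose after rescaling (median -0.41 as deposited). Those that fell furthest were Smim5 (-2.32), Spib (-2.22), an ETS factor of plasmacytoid and B cells, Ly6d (-1.43, adjusted p = 0.0367; not called rescaled, 0.107) and Tlr9 (-0.94), the sensor of CpG DNA. Spib stood at 0.56, 1.16 and 1.12 FPKM in hyphae libraries, against 9.11, 9.56 and 5.72 FPKM in control libraries. That separation was not seen for Siglech, although the 2 changes were not compared by a test. Of 15 tested genes shared by dendritic cells, 9 fell and none rose as deposited, and 7 fell and 3 rose after rescaling (median -1.05 as deposited). They included Adam19 (-1.87), a membrane protease, Kmo (-1.52), an enzyme of tryptophan breakdown, Kit (-1.35), the stem cell factor receptor, which lung mast cells and endothelium share, and Bcl11a (-1.35), a factor of plasmacytoid and B cells.

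**Figure D4:**
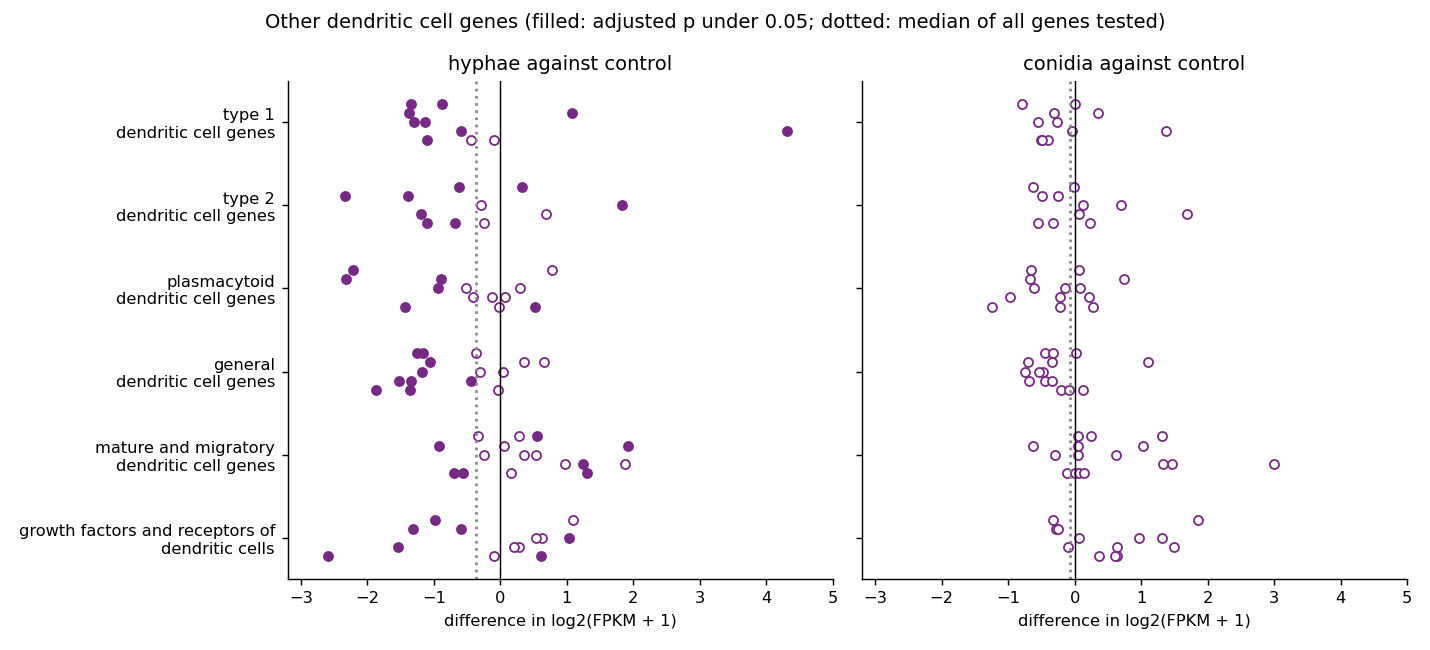
Difference in log2(FPKM + 1) of the tested genes on 6 other dendritic cell lists, for hyphae against control (left) and conidia against control (right); each point is a gene, filled where the adjusted p is under 0.05, and the dotted line is the median of all genes tested. Filled points lie on both sides of 0 for hyphae, with Nfil3 at the far right (4.31), and there are none for conidia.

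Genes of mature and migratory dendritic cells were divided. Of 16 tested 4 rose and 3 fell after hyphae, and 5 rose and 1 fell rescaled (median 0.31). Relb, an NF-kB subunit needed for dendritic cell maturation, stood at 33.83, 52.06 and 71.26 FPKM in hyphae libraries, against 13.07, 13.48 and 11.05 FPKM in control libraries (log2 change 1.92, SE 0.32, adjusted p = 0.000864). Tnfrsf4 (1.30), the co-stimulatory receptor OX40, and Ccl17 (1.24), a chemokine for Ccr4-bearing T cells, rose as well. Ccr7, the receptor that guides dendritic cells and T cells to lymph nodes, stood at 2.20, 4.82 and 5.58 FPKM in hyphae libraries, against 8.03, 10.29 and 7.18 FPKM in control libraries. It fell by 0.92 (adjusted p = 0.0365), a call that was lost after rescaling (adjusted p = 0.189).

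Growth factors and receptors of dendritic cells were tested for 13 genes, of which 5 fell and 2 rose after hyphae (4 and 3 rescaled; median 0.21). Flt3l, the ligand of Flt3, stood at 20.21, 17.88 and 21.20 FPKM in hyphae libraries, against 44.94, 35.66 and 39.76 FPKM in control libraries. It fell by 0.98 (SE 0.20, adjusted p = 0.00269; 0.57 rescaled, adjusted p = 0.0194), and in conidia libraries it stood at 22.04, 41.51 and 34.80 FPKM. The chemokine receptors Ccr2 (-2.60), which brings in monocytes and the dendritic cells they give rise to, and Cxcr3 (-1.31) also fell, and Tslp, an epithelial cytokine that acts on dendritic cells, rose by 1.04 (adjusted p = 0.0148). Xcl1, the ligand of Xcr1, was too low to be tested. It stood at 0, 0.11 and 0.69 FPKM in hyphae libraries, 0, 1 and 0.22 in conidia libraries and 0.23, 1.02 and 0.11 in control libraries.

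Markers of other cell types that share some of the 9 genes moved in the same comparisons. Summed FPKM of 10 B cell markers was 24.7 to 64.5 in hyphae libraries, 47.3 to 141 in conidia libraries and 103 to 186 in control libraries, and 8 of 9 tested fell after hyphae (4 rescaled), where 6886 of all 13761 genes fell (4035 rescaled). Summed FPKM of 10 T cell markers was 11.1 to 19.1 in hyphae libraries, 17.0 to 46.5 in conidia libraries and 33.4 to 44.7 in control libraries, and 7 of 9 tested fell after hyphae (6 rescaled). The lists are not separate: Cd8a is on this list and on that of type 1 dendritic cells. Ccr2 and Ly6c2 are each on a dendritic cell list and on the monocyte list. Monocyte markers, of which 6 fell and 1 rose after hyphae (5 and 5 rescaled), summed to 542 to 670 FPKM in hyphae libraries, 688 to 1071 in conidia libraries and 394 to 541 in control libraries, while those of alveolar macrophages overlapped among the groups (349 to 745, 485 to 774 and 361 to 781). Of 12 tested alveolar macrophage markers 3 fell and none rose after hyphae, and 1 fell and 3 rose after rescaling. Conidia replicate 2 was the highest conidia library in B and T cells too: the median B cell marker, relative to its control mean, stood at -1.53, -0.06 and -1.57 in conidia replicates 1, 2 and 3. In the same order, summed FPKM was 3106, 868 and 2229 for neutrophil markers and 1071, 688 and 828 for monocyte markers. Replicate 2 was thus the lowest conidia library in both of these sums. The part of these cell types in the values of Irf8, Itgae, Flt3 and Zbtb46 was not tested.

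**Figure D5:**
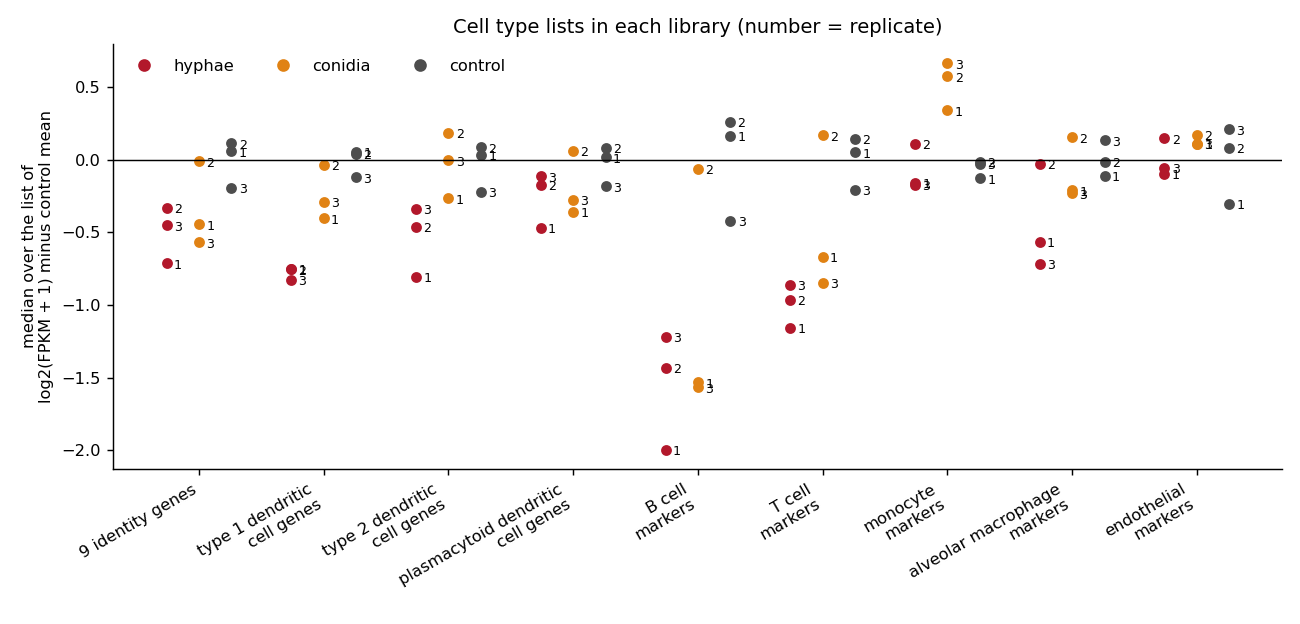
Median over each list of log2(FPKM + 1) minus the control mean, 1 point per library numbered by replicate, for the 9 identity genes, 3 dendritic cell lists and 5 lists of other cells. Conidia replicate 2 lies near the control libraries for the 9 identity genes (-0.01) and for B cell markers (-0.06), where conidia replicates 1 and 3 lie at -0.44 and -0.57 and at -1.53 and -1.57.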

How the data were processed

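Poly(A) RNA of whole lung was sequenced on a BGISEQ instrument, per the labels' protocols, in 9 libraries. The values deposited by the authors are FPKM per gene, per the file headers, 1 file per library. The submitters' processing notes name HISAT, Bowtie2 and build mm9, with no role or version, and the program that computed FPKM is not known here. The gene annotation and promoters at hand belong to GRCm38, so they were used for names, neighbours, transcript lengths and sequences only.

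Tests used log2(FPKM + 1) of genes that reached 1 FPKM in 3 libraries or more (13761, among them all 9 members; Xcr1 and Siglech reached 1 FPKM in 4 libraries each). One limma-trend fit (limma 3.58.1, R 4.3.3, robust, jsonlite 2.0.0 for the labels) held all 9 libraries with 1 term per group. Tests were two-sided, adjusted by Benjamini-Hochberg over all genes tested, and called under 0.05. With 3 libraries a side, an exact permutation test has a smallest two-sided p of 0.1. The fit was tested on simulated data. Alternatives were rescaling by median-of-ratios factors, a pseudocount of 0.1, no filter, a fit of 2 groups only, library weights, a replicate block and leaving out each library.

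The members and lists were chosen with earlier results of these data known. All 9 members are named; other lists name up to 4 called genes with the largest change, plus Flt3l, Xcl1, Ccr7 and Cadm1 (1 gene so chosen is not reported here); Clec1a comes from the likeness rule, and Id2, Clec1b and the genes under other observations were named after their values were seen. Summed FPKM of neutrophil markers was 674 to 5978 in hyphae, 868 to 3106 in conidia and 135 to 157 in control libraries, and that of cardiac muscle markers was 102 to 2157, 260 to 413 and 428 to 1466.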

Additional observations from a re-analysis of the deposited data

How the results depend on the processing

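The falls of Cd209a, Xcr1 and Clec9a after hyphae kept direction and call in all 15 alternatives, with log2 changes of -2.59 to -1.62, -1.99 to -0.83 and -1.95 to -1.31. Members called for hyphae against control numbered 3 to 4 with 1 library left out. Zbtb46 was called, as lower, in 1 of the 15 alternatives. For conidia against control none was called in most settings. With library weights 6 were, Clec9a as higher and the others as lower. With 1 library left out 0 to 2 were, the 2 being Xcr1 and Cd209a without conidia replicate 2. For hyphae against conidia 3 were called, 1 after rescaling, 1 with only the 2 groups, 7 with library weights, and 1 to 3 with 1 library left out, where genes called numbered 7599, 6988, 6786, 11022 and 5958 to 7922. Of the 7, Irf8 and Siglech were called as higher after hyphae and the others as lower. Genes called for conidia numbered 95, against 47 rescaled, 43 without a filter, 5031 with library weights, 57 with the replicate block and 0 to 1535 with 1 library left out. The cause of these shifts was not tested.

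Only differences without a call changed sign. After rescaling these were Zbtb46 (0.15) and Siglech (0.050) for hyphae against control and Zbtb46 (0.22) and Itgae (0.094) for hyphae against conidia; with library weights, Batf3 (0.056) and Siglech (0.024) for hyphae against control and Itgae (0.26) for hyphae against conidia. With 1 library left out the values ran from -0.42 to 0.041 for Siglech after hyphae, from -0.12 to 0.16 for Batf3 after conidia and, for hyphae against conidia, from -0.22 to 0.028 for Zbtb46, from -0.25 to 0.050 for Itgae and from -0.085 to 0.43 for Irf8. The counts of the 6 other lists stayed within 1.5 times in 85 of 90 settings for hyphae against control, 73 of 90 for conidia and 84 of 90 for hyphae against conidia.

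Same-numbered libraries showed no steady tendency to deviate together, with correlations of -0.312 to 0.425 over 9 pairs. The same number correlated best in 7 of 18 combinations. The value of 0.425, for replicate 2 of control and hyphae, was the highest of all pairs between groups. So few pairs cannot show that there was no pairing. The labels name none, and the numbers were not treated as pairs in the main fit. With the replicate block 5 members were called for hyphae against control (Itgae added, adjusted p = 0.0287), 0 for conidia and 3 for hyphae against conidia, and genes called numbered 8562, 57 and 7158. By the approximate fragment counts, depth limits Siglech (from 3.61 fragments in its lowest library), Batf3 (from 11.5) and Cd209a (from 11.6). The value for Siglech is from conidia replicate 1, where the depth estimate fitted least well.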

Other observations

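Some genes of mature dendritic cells lay higher in conidia libraries without passing the test. They were chosen after their values were seen. Il4i1, an amino acid oxidase that dampens T cells, stood at 69.46, 5.71 and 19.21 FPKM in conidia libraries, against 2.01, 2.12 and 1.01 FPKM in control libraries (log2 difference 2.99, adjusted p = 0.0945 in limma). Ccl17 stood at 51.21, 16.73 and 32.88 FPKM in conidia libraries, against 10.05, 10.81 and 10.63 FPKM in control libraries (1.46, adjusted p = 0.12). Cd274, the checkpoint ligand PD-L1, stood at 23.11, 12.90 and 12.36 FPKM in conidia libraries, against 5.65, 6.34 and 5.03 FPKM in control libraries (1.31, adjusted p = 0.128). Of the 16 tested genes of that list 13 had a positive and 3 a negative difference, with a median of 0.10. For 7 of the 16, these 3 among them, every conidia library lay above every control library, and the groups did not overlap in either direction for 29.8% of all genes.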
